A study of Mus musculus with 11 samples.

Results

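Adgre4, Ace, Fgr, Gngt2, Treml4, Cd300e, Spn and Pglyrp1 are 8 genes linked to non-classical, or patrolling, monocytes. They were followed among the 24411 genes of the tables through 11 mouse brain libraries. They had been picked because their counts were higher after lumbar intrathecal (ITL) than after intracerebroventricular (ICV) transplantation and because of their monocyte role. The ITL against ICV values below are therefore a description of how they were chosen, without a test. All 8 passed the filter on low counts.

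The study transplanted blood-forming cells competitively into mice. RNA was then sequenced from sorted myeloid cells of the brain, which the labels call microglia-like. For each of the ITL, ICV and intravenous (IV) routes there were 3 populations, named by CD45 allele and cell label as CD45.1 TAµ, CD45.2 µ and CD45.1 µ, with 1 library each. Beside this layout of 9 stood a PBS library of ICV CD45.2 cells and a CTR µ library, whose treatment is CTR and for which no CD45 allele is given. TAµ and PBS are not spelled out in the labels, nor is the allele of the host. Strain, age, the number of animals and the transgene status of each library are not stated in the labels. With 1 library per combination, no value below has a replicate of its own. The fitted errors rest on how far single libraries departed from a model in which effects of route and population add up. Differences between animals, and route effects that vary by population, are mixed in these errors and cannot be told apart.

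Patrolling monocytes are blood monocytes that crawl along the inner wall of vessels and clear debris there. In mice they carry little Ly6C and much CX3CR1, they arise largely from classical Ly6C-high monocytes, and the nuclear receptor Nr4a1 is needed for their survival. Microglia, the resident macrophages of the brain, share genes such as Cx3cr1 and Csf1r with them, so only part of a patrolling monocyte gene list separates the cell types. In bulk libraries of this kind, fewer cells of a type and less RNA of a gene per cell cannot be told apart.

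The libraries held between 6090589 and 21282823 counts. Levels are in CPM, that is a count over the library total, rescaled. For a gene without a count a limit of 3 counts was used, which came to 0.141 to 0.493 CPM. The exact 95% interval of a 0 reaches somewhat higher, as in ICV CD45.1 µ, to 0.331 CPM against a limit of 0.269 CPM. Such limits and the 95% intervals below cover counting error only. The fewest genes were detected in IV CD45.2 µ (10477), followed by ICV CD45.1 µ (11456), against up to 15492 in the others, and each of these libraries had 3 of the 8 genes at 0. The 12 microglia genes were detected in every library, with a summed level of 6130 to 24600 CPM. The 8 genes together reached 37.3 to 549 CPM.

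The promoters of Adgre4, Ace and Fgr are shown because these genes, an adhesion receptor, an enzyme and a kinase, shared the higher level after ITL than after ICV delivery. The sequences are from RefSeq (build GRCm38.p6, a different build from the mm39 of the reads), run from 250 bases before to 50 bases after the annotated start, and carry in capitals any match to short motifs of myeloid transcription factors on either strand. Ace has 2 annotated starts.
Adgre4 (chr17:55749734-55750033, plus strand): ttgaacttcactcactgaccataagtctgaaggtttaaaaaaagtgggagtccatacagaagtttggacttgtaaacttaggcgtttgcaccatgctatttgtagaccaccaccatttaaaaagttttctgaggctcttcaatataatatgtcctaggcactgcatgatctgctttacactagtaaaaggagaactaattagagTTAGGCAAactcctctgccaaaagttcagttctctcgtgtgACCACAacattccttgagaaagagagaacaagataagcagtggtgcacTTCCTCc
Ace, upstream start (chr11:105967698-105967997, plus strand): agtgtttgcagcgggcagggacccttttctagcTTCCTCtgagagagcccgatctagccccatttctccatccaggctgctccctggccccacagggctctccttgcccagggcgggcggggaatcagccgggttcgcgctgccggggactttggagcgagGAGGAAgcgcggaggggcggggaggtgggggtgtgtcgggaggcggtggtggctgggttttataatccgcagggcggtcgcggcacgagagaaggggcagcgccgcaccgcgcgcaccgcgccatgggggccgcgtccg
Ace, downstream start (chr11:105974939-105975238, plus strand): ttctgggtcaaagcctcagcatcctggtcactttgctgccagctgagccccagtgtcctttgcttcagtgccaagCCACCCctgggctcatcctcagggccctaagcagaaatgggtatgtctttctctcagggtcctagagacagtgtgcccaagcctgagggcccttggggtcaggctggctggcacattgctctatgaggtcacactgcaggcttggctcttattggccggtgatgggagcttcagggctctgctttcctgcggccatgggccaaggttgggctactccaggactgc
Fgr (chr4:132973845-132974144, plus strand): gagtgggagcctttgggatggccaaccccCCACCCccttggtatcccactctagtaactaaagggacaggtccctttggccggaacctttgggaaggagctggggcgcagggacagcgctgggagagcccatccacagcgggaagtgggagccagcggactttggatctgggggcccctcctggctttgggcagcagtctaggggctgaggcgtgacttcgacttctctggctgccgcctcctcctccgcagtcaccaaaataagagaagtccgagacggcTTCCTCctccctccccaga
Of the 8 genes, 7 matched the promoter table, with 8 promoters. The PU.1 core GAGGAA lay in 5 of the 8, against 28.3% of all 32851 promoters of the same length. The KLF motif CCACCC lay in 3 of the 8, against 31.5% of all. The C/EBP motif TTGCNNAA (10.8% of all) and the RUNX motif TGTGGT (16.8% of all) were found only in the Adgre4 promoter, and the NR4A motif AAAGGTCA (1.51% of all) in none. A match is a run of letters in this window and says nothing of binding.

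Adgre4 encodes an adhesion receptor of the EGF-TM7 family found on mouse myeloid cells. Its level in the CD45.1 TAµ, then CD45.2 µ, then CD45.1 µ libraries was 112, 103 and 16.1 CPM after ITL delivery, against 8.86, 4.23 and 0 CPM after ICV delivery and 29.8, 0 and 4.58 CPM after IV delivery. The lowest ITL library was above every ICV library but below the CD45.1 TAµ library of the IV route. The fitted log2 difference was 4.06 ± 0.71 (SE) for ITL against ICV and 2.95 ± 0.64 for ITL against IV. By counts alone the ratio of ITL to ICV was 12.6 in CD45.1 TAµ (95% interval 10.3 to 15.6) and 24.5 in CD45.2 µ (19.6 to 30.9), and in CD45.1 µ, where ICV had no count, it was at least 59.7 against the limit of 3 counts.

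Cd300e, an activating receptor of monocytes, had 40.5, 20.0 and 14.8 CPM in the ITL libraries of CD45.1 TAµ, then CD45.2 µ, then CD45.1 µ, against 0, 2.77 and 0 CPM in the ICV libraries and 7.84, 0 and 0 CPM in the IV libraries. Every ITL library was above every other library of the layout, 4 of which held no count. Treml4, a TREM-like receptor that marks Ly6C-low monocytes in mice, had 34.7, 34.6 and 5.02 CPM after ITL, against 0, 2.54 and 0 CPM after ICV and 6.35, 0 and 8.51 CPM after IV. The ITL libraries were all above the ICV ones, whereas the CD45.1 µ library of the ITL route was below 2 of the 3 IV libraries. The fitted log2 difference for ITL against ICV was 4.14 ± 1.08 for Cd300e and 4.17 ± 1.16 for Treml4. These sizes rest on ICV CD45.2 µ, since the other 2 ICV libraries had no count of either gene. Without ICV CD45.2 µ the fitted values were 11.6 for Cd300e and 11.2 for Treml4, set by the default prior count of the fit rather than by a measured level.

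Spn encodes the sialomucin CD43, which is abundant on patrolling monocytes and on T cells. It had 71.6, 51.4 and 16.7 CPM in the ITL libraries, against 15, 8.08 and 3.77 CPM in the ICV libraries and 28.8, 0.0773 and 23.0 CPM in the IV libraries, each in the order CD45.1 TAµ, then CD45.2 µ, then CD45.1 µ. The ITL library was the higher of each ITL and ICV pair, by 4.43 to 6.36 times, but the lowest ITL and the highest ICV library, which are from different populations, were close. Per library total the ITL library was the higher of these, and on the composition-adjusted (TMM) scale of the model it was the lower, at 4.03 against 4.11 log2 CPM. The fitted log2 difference for ITL against ICV was 2.18 ± 0.71. The genes of T, NK and B cells together stayed at 0 to 26.6 CPM in every layout library, with all 15 at 0 in IV CD45.2 µ, and their part in the Spn level was not tested.

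Ace, angiotensin-converting enzyme, is a peptidase of endothelium, choroid plexus and some myeloid cells. It had 135, 92.9 and 31.2 CPM in the ITL libraries of CD45.1 TAµ, then CD45.2 µ, then CD45.1 µ, against 4.85, 8.36 and 14.6 CPM in the ICV libraries and 52.1, 1.08 and 4.40 CPM in the IV libraries. The ITL libraries were all above the ICV libraries, with the narrowest gap in CD45.1 µ (2.13 times, 1.77 to 2.59) and the widest in CD45.1 TAµ (27.9 times, 21.4 to 36.9). The fitted log2 difference was 2.90 ± 0.69 for ITL against ICV. Summed choroid plexus genes were 28.3 to 135 CPM in ITL and 19.4 to 1470 CPM in ICV libraries, and summed endothelial genes 103 to 302 CPM in ITL and 39.0 to 483 CPM in ICV libraries. The highest choroid plexus sum, in ICV CD45.1 µ, stood in the library with the highest Ace level of the ICV route. The highest endothelial sum, 483 CPM in ICV CD45.1 TAµ, stood in the library with the lowest Ace level of that route, 4.85 CPM. The part of either cell type in the Ace level was not tested. Ace overlaps the predicted gene Gm11651 on the other strand, and whether the counting used strand is not stated, so its counts are uncertain to that extent.

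Fgr is a Src family kinase of myeloid cells that acts downstream of integrins and Fc receptors. It had 73.6, 79.0 and 42.7 CPM in the ITL libraries, against 13.4, 15.2 and 0.628 CPM in the ICV libraries and 47.9, 13.6 and 47.9 CPM in the IV libraries, each in the order CD45.1 TAµ, then CD45.2 µ, then CD45.1 µ. The ICV libraries were below all ITL libraries, while the ITL and IV libraries overlapped. The fitted log2 difference was 2.50 ± 0.60 for ITL against ICV and 0.80 ± 0.53 for ITL against IV. Gngt2, a gamma subunit of heterotrimeric G proteins best known from cone photoreceptors, was the most even of the genes after ITL, with 63.4, 60.6 and 67.4 CPM, against 15.9, 26.2 and 7.18 CPM after ICV and 24.3, 17.6 and 19.7 CPM after IV. All 3 ITL libraries were above all 6 others, with fitted log2 differences of 1.85 ± 0.45 against ICV and 1.70 ± 0.44 against IV. Gngt2 overlaps Abi3 on the other strand, so the same limit on strand holds for its counts.

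Pglyrp1, a peptidoglycan-binding antibacterial protein of neutrophil granules, had another order of levels. It had 18.4, 33.3 and 24.1 CPM in the ITL libraries of CD45.1 TAµ, then CD45.2 µ, then CD45.1 µ, against 10, 19.3 and 11 CPM in the ICV libraries and 22.3, 6.65 and 71.6 CPM in the IV libraries. Its ITL library was the higher of each ITL and ICV pair by 1.73 to 2.18 times, but the groups overlapped and the fitted log2 difference was 0.66 ± 0.69. Leaving out 1 library at a time moved that value between 0.05 without ICV CD45.1 µ and 1.53 without ICV CD45.2 µ. Its highest level was in IV CD45.1 µ, the library in which the summed neutrophil genes were also highest, at 14900 CPM against 505 to 4920 CPM in the other layout libraries. The part of neutrophil RNA in the Pglyrp1 level was not tested.

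**Figure D1:**
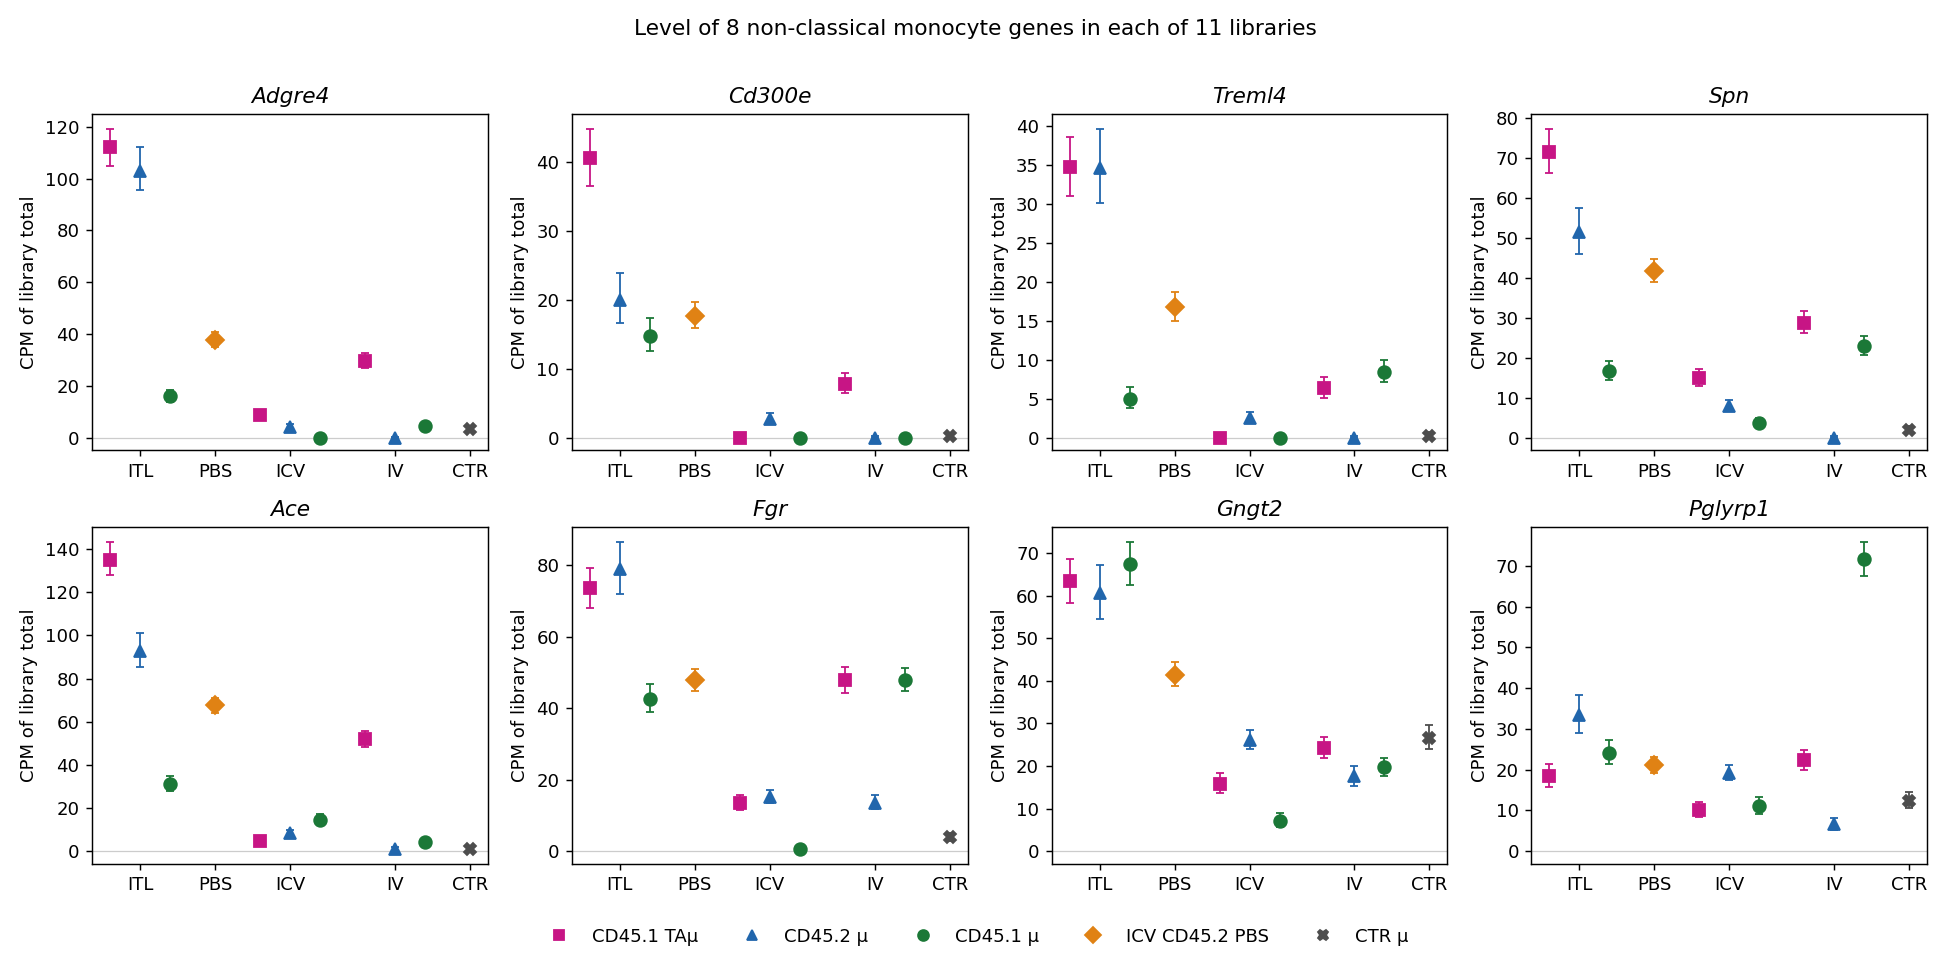
Level of each of the 8 genes in CPM of the library total (vertical axis, linear, with its own range in each panel) in the 11 libraries, grouped along the horizontal axis as ITL, PBS, ICV, IV and CTR. Points are single libraries, marked by population, and bars are exact 95% Poisson intervals for counting error. Adgre4 reaches 112 and 103 CPM in 2 ITL libraries and stays at or below 8.86 CPM in all ICV libraries, whereas Pglyrp1 is highest at 71.6 CPM in IV CD45.1 µ.

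Counted together, all 8 genes were fitted higher in ITL than in ICV and the ITL library was the higher in 3 of 3 populations for each. A fitted difference of at least 2-fold with the same direction in all 3 populations held for 7 of the 8, as for 4.42% of the 13339 genes tested. On the TMM scale the ITL and ICV groups did not overlap for 6 of the 8, all but Spn and Pglyrp1, as for 4.86% of genes tested. Since the genes were picked on this difference, these counts only restate the choice. The median log2 difference over the 8 was 2.70, against -0.02 over all genes tested.

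ITL against IV and ICV against IV share their ITL or ICV libraries with the choice of the genes and are likewise given without a test. In ITL against IV, 4 of the 8 (Adgre4, Ace, Gngt2 and Cd300e) were at least 2-fold higher with the same direction in all 3 populations, as were 7.52% of genes tested. The groups did not overlap for Gngt2 and Cd300e, that is 2 of the 8, as for 6.11% of genes tested. Fgr, Treml4 and Spn were lower in the ITL than in the IV library within CD45.1 µ, by ratios of 0.89, 0.591 and 0.727, and Pglyrp1 by 0.337. Without IV CD45.1 µ, or without ITL CD45.1 µ, the count of 4 became 7, over the 2 populations then left. For ICV against IV all 8 were fitted lower, with a median log2 difference of -0.87, against 0.065 over all genes tested. However, 0 of the 8 were at least 2-fold lower with the same direction in all 3 populations, as were 3.22% of genes tested. In CD45.2 µ the ICV library was the higher for all 8, set against the IV library with the fewest genes detected. Ace was also higher after ICV within CD45.1 µ (14.6 against 4.40 CPM), where Cd300e had no count after either route. The share of all genes with these directions is not given, so nothing is read from them. The count of 0 became 5 without IV CD45.2 µ or without ICV CD45.2 µ, over the 2 populations then left. It was 7 without both libraries of few genes, ICV CD45.1 µ together with IV CD45.2 µ, where the same direction rests on the CD45.1 TAµ pair alone.

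**Figure D2:**
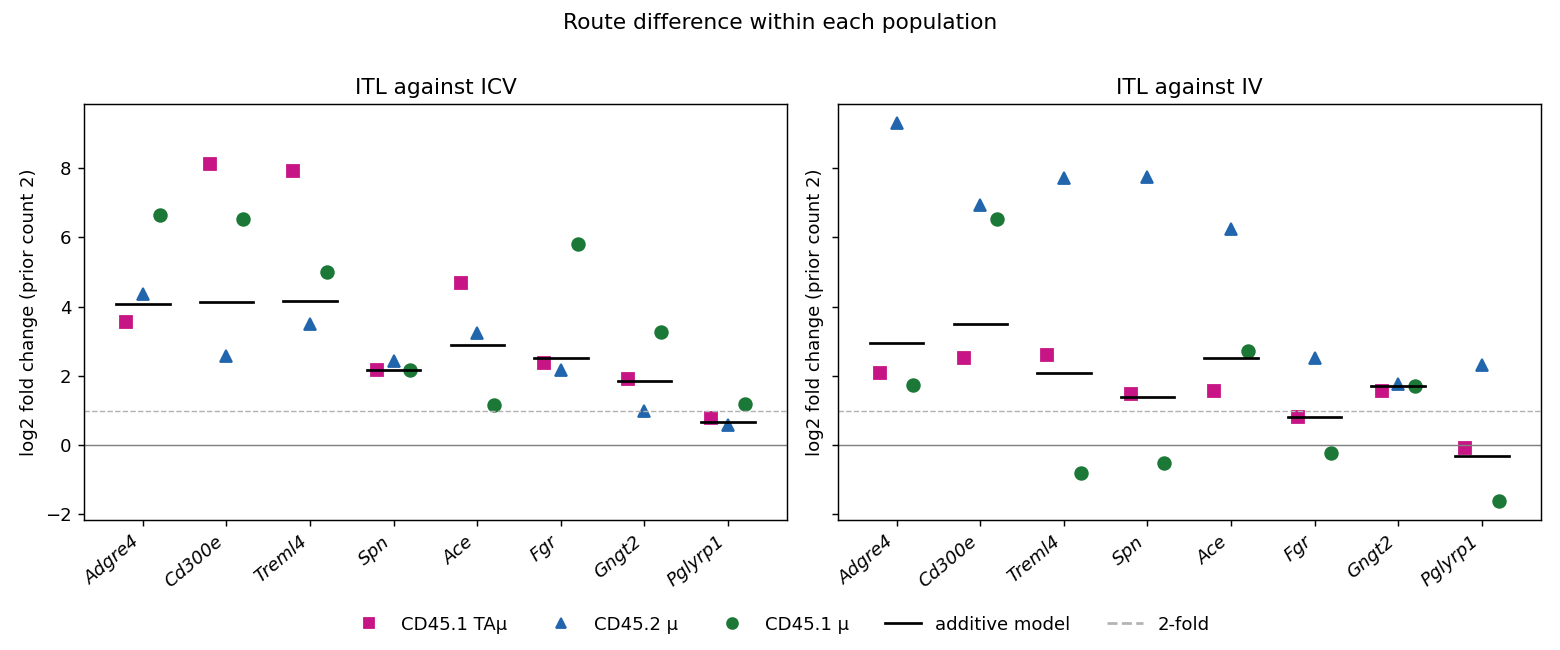
Log2 fold change between routes for the 8 genes (vertical axis), for ITL against ICV on the left and ITL against IV on the right. Symbols are the 3 populations, horizontal bars the additive model over 9 libraries, and the dashed line marks 2-fold. The prior count of 2 named on the axis applies to the symbols and not to the bars. All points lie above 0 for ITL against ICV, while for ITL against IV the CD45.1 µ points of Treml4, Spn, Fgr and Pglyrp1 lie below 0, as does the CD45.1 TAµ point of Pglyrp1.

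The contrasts between populations are balanced over the routes, and they were tested. The count model gives less weight to libraries with few counts, so genes low after ICV lean on the other routes there. These tests are thus not fully separate from the choice of the genes, which was also made with earlier results of these data known. With edgeR's quasi-likelihood test and Benjamini-Hochberg adjustment over all 13339 genes, 0 of the 8 changed between CD45.1 TAµ and CD45.1 µ, where 0.075% of genes tested (10) passed. Likewise 0 of the 8 passed between CD45.2 µ and CD45.1 µ, with 0.03% of genes (4), and 0 of the 8 for CD45.1 TAµ against CD45.2 µ, with 0.345% of genes (46). At an unadjusted p under 0.05 there were 2, 1 and 1 of the 8 in these comparisons, among 715, 1172 and 901 of all genes. DESeq2 and limma-voom also called 0 of the 8 in each. A p that misses the threshold does not show that the populations had like levels, and the SE of these differences ran from 0.45 to 1.17 log2 units.

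Adgre4 came nearest to a call. It averaged 50.2 ± 54.5 CPM in CD45.1 TAµ and 6.88 ± 8.28 CPM in CD45.1 µ (SD, n = 3 routes each), and the CD45.1 TAµ library was the higher in 3 of 3 routes, although the groups overlapped. The fitted log2 difference was 3.11 ± 0.74 (edgeR, adjusted p = 0.237). Without IV CD45.2 µ, a library in neither of the groups compared, it was 3.02 with an adjusted p of 0.0183 (edgeR), over 13191 genes then tested. Without both libraries of few genes it was 2.91 with an adjusted p of 0.0293 (edgeR). The layout is not balanced in either of these fits. Over the other alternatives run, the edgeR, DESeq2 and limma-voom adjusted p ranged from 0.0773 to 1.

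Ace averaged 64.0 ± 65.9 CPM in CD45.1 TAµ and 16.8 ± 13.5 CPM in CD45.1 µ (SD, n = 3 routes each), with a log2 difference of 1.99 ± 0.69 (edgeR, adjusted p = 0.874), higher in 2 of 3 routes. The exception was the ICV route, with 4.85 CPM in CD45.1 TAµ and 14.6 CPM in CD45.1 µ. Fgr differed by 0.66 ± 0.56, Gngt2 by 0.36 ± 0.45, Treml4 by 1.11 ± 1.02, Cd300e by 2.09 ± 1.01, Spn by 1.25 ± 0.68 and Pglyrp1 by -0.95 ± 0.63 log2 units between the same populations. Pglyrp1 alone was fitted lower in CD45.1 TAµ, and none of the 8 passed. The median log2 difference was 1.18 over the 8, against 0.06 over all genes tested. The genes were picked as a group, so nothing is read from their shared direction.

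Between CD45.2 µ and CD45.1 µ the fitted log2 differences ran from -0.71 for Pglyrp1 to 1.84 for Adgre4 (SE 0.79, edgeR adjusted p = 0.534). The IV route went against the other routes for Adgre4, Treml4, Spn, Fgr and Pglyrp1, whose CD45.2 µ library was the lower there and the higher after ICV and ITL. For CD45.1 TAµ against CD45.2 µ they ran from -0.24 for Pglyrp1 to 1.45 for Ace (SE 0.65, edgeR adjusted p = 0.695). In that comparison Adgre4 and Spn were higher in CD45.1 TAµ in 3 of 3 routes. Whether the population differences depend on the route could not be fitted, since each combination had 1 library.

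**Figure D3:**
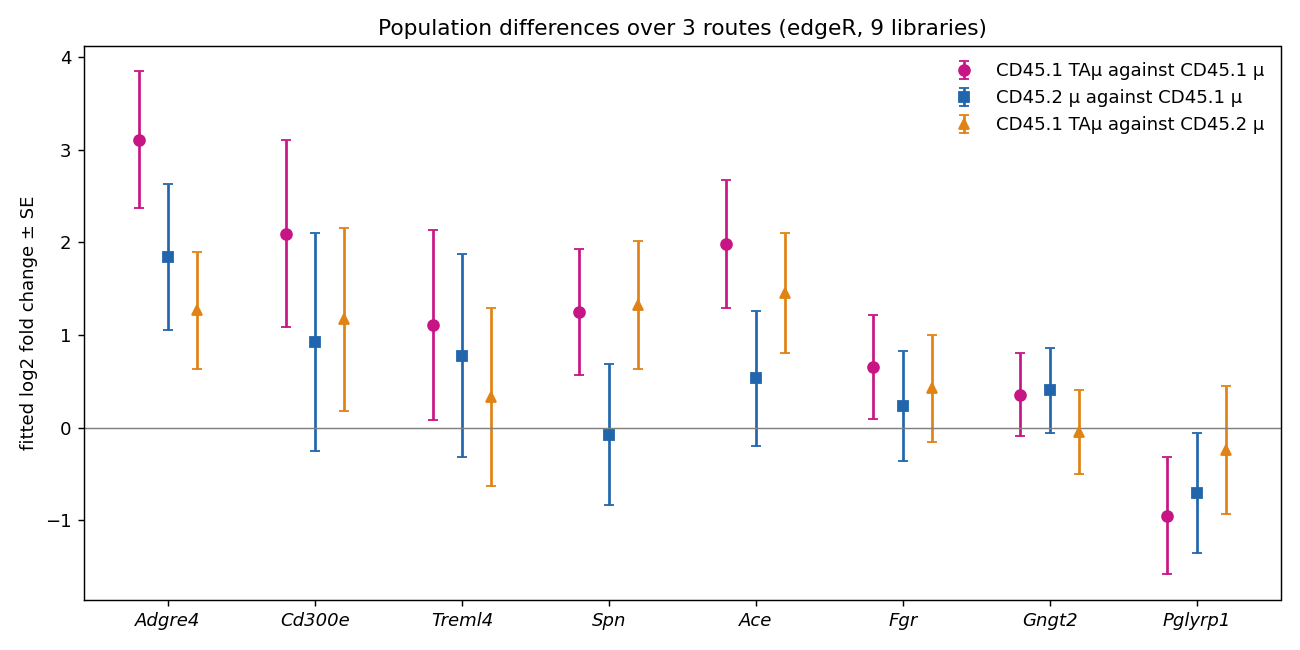
Fitted log2 fold change with its SE (vertical axis) for the 8 genes in the 3 comparisons between populations, from edgeR on 9 libraries with route as a block. Adgre4 in CD45.1 TAµ against CD45.1 µ is the highest point at 3.11 ± 0.74, and no point passed the adjusted threshold.

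In the order of levels over the layout, ITL CD45.1 TAµ was highest for 5 of the 8 genes (Adgre4, Ace, Treml4, Cd300e and Spn). ITL CD45.2 µ was highest for Fgr, ITL CD45.1 µ for Gngt2 and IV CD45.1 µ for Pglyrp1. High ITL levels were part of the choice of the genes, and the share of all genes with these orders is not given. Nothing is therefore read from these counts. The highest library and the next one had overlapping counting intervals for Adgre4 (105 to 119 in ITL CD45.1 TAµ and 95.5 to 112 CPM in ITL CD45.2 µ), Treml4, Fgr and Gngt2. For Ace, Spn, Cd300e and Pglyrp1 they did not overlap. Among the ITL libraries, Gngt2 had 63.8 ± 3.43 CPM, whereas Adgre4 had 77.2 ± 53.1 CPM (SD, n = 3 populations each), with CD45.1 µ the low library.

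The PBS and CTR libraries stood outside the model. The PBS library had 37.9 CPM of Adgre4, 67.5 of Ace, 47.8 of Fgr, 41.5 of Gngt2, 16.8 of Treml4, 17.7 of Cd300e, 41.8 of Spn and 21.1 of Pglyrp1. It was above all 3 ICV libraries for 8 of the 8, as for 25.8% of genes tested. The genes were chosen partly for low ICV levels, so nothing is read from that count. PBS was above CTR for 8 of the 8, as for 56.6% of genes tested, and above all 3 IV libraries for 6 of the 8, as for 17.7%. It also exceeded ITL CD45.1 µ for 6 of the 8 (all but Gngt2 and Pglyrp1), as for 51.0% of genes tested. PBS was above all 3 ITL libraries for 0 of the 8. High ITL levels were part of the choice of the genes, and no share over all genes is given for that count. Nothing is therefore read from it. PBS was then set against ICV CD45.2 µ, the library with the same allele and route. It was higher by 8.96 times for Adgre4 (95% interval 7.19 to 11.3) and by 8.07 times for Ace (6.89 to 9.49). The ratio was 6.61 for Treml4 (4.95 to 8.99) and 6.38 for Cd300e (4.83 to 8.56). The ratio was 5.17 for Spn (4.38 to 6.13), 3.14 for Fgr (2.77 to 3.58) and 1.58 for Gngt2 (1.42 to 1.77), while for Pglyrp1, at 1.10, the interval of 0.954 to 1.26 included equal levels. These compare 2 libraries and not the conditions.

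CTR had 3.37 CPM of Adgre4, 0.842 of Ace, 3.90 of Fgr, 26.6 of Gngt2, 0.306 of Treml4, 0.23 of Cd300e, 2.07 of Spn and 12.3 of Pglyrp1. It was below all 3 ITL libraries for 8 of the 8 genes, as for 26.6% of genes tested. The ITL levels were part of the choice of the genes, so nothing is read from that count. CTR was below all 9 layout libraries for 1 of the 8, Ace, as for 6.97% of genes tested. Some ICV and IV libraries were as low or lower, since 7 of the 9 were above CTR for Adgre4 and 3 of the 9 for Gngt2. CTR also had the highest summed microglia genes, 24600 CPM, and a low sum of classical monocyte genes, 252 CPM.

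The other 22 genes of the non-classical monocyte list, of which 21 were tested, overlapped between the routes in their summed level. The sum was 10200 to 12400 CPM in ITL, 10700 to 11300 CPM in ICV and 10800 to 12200 CPM in IV libraries, most of it from Csf1r and Cx3cr1, which microglia also express. In ITL against ICV, 4 of the 21 were at least 2-fold higher with the same direction in all 3 populations, beside 4.42% of all genes tested, and the median log2 difference of the 21 was 0.10. These 4 were Eno3, a muscle-type enolase of glycolysis (log2 difference 3.34), S1pr5, a sphingosine 1-phosphate receptor (1.81), Fcgr4, an activating IgG receptor (1.70), and Clec4a3, a C-type lectin (1.22). The ITL and ICV libraries did not overlap for any of the 4, beside 4.86% of all genes tested with ITL the higher. Of the 21, 13 were fitted higher and 8 lower, and 0 were at least 2-fold lower in that way. Cebpb (-0.71) and Klf2 (-0.69) were lower after ITL in all 3 populations, also without overlap. The share of all genes lower in this way is not given, so nothing is read from Cebpb and Klf2. In the tested contrasts, Cd36, a scavenger receptor, rose in CD45.1 TAµ against CD45.2 µ (log2 difference 1.64 ± 0.31, edgeR adjusted p = 0.0232, higher in 3 of 3 routes) and 0 of the 21 passed in the other 2 contrasts. The smallest p there were those of Itgax (1.39 ± 0.38, edgeR adjusted p = 0.544) and Cd36 (0.74 ± 0.29, edgeR adjusted p = 0.874) in CD45.1 TAµ against CD45.1 µ. They were those of Pou2f2 (1.11 ± 0.33, edgeR adjusted p = 0.485) and Cd36 (-0.90 ± 0.31, edgeR adjusted p = 0.486) in CD45.2 µ against CD45.1 µ. Nr4a1, the regulator of the lineage, had 425, 480 and 304 CPM in the ITL libraries of CD45.1 TAµ, then CD45.2 µ, then CD45.1 µ, against 250, 468 and 324 CPM in the ICV libraries, with a fitted log2 difference of 0.10.

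Genes of classical monocytes were also higher in sum in ITL than in ICV libraries, a comparison without a test. Their sum was 783 to 1380 CPM in ITL libraries and 454 to 552 CPM in ICV libraries, with no overlap, and 169 to 1590 CPM in IV libraries. In ITL against ICV, 13 of 15 were fitted higher and 7 of 15 were at least 2-fold higher with the same direction in all 3 populations, beside 4.42% of all genes tested. Neutrophil genes reached 1810 to 4920 CPM in ITL, 1100 to 3420 CPM in ICV and 505 to 14900 CPM in IV libraries, and 4 of 14 were at least 2-fold higher in ITL than in ICV in that way, beside the same 4.42%. No classical monocyte or neutrophil gene passed in any contrast between populations. The part of classical monocytes or neutrophils in the levels of the 8 genes was not tested. In the other cell type lists, the microglial regulator Sall1 fell in CD45.1 TAµ against CD45.1 µ (-4.83 ± 0.49, edgeR adjusted p = 0.000199, lower in 3 of 3 routes), and 4 of 12 microglia genes fell in CD45.1 TAµ against CD45.2 µ. Of 10 border-associated macrophage genes, Mrc1 rose in CD45.1 TAµ against CD45.2 µ (1.49 ± 0.29, edgeR adjusted p = 0.0303, higher in 3 of 3 routes). No lymphocyte, endothelial, choroid plexus or dendritic cell gene passed in any contrast between populations.

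**Figure D4:**
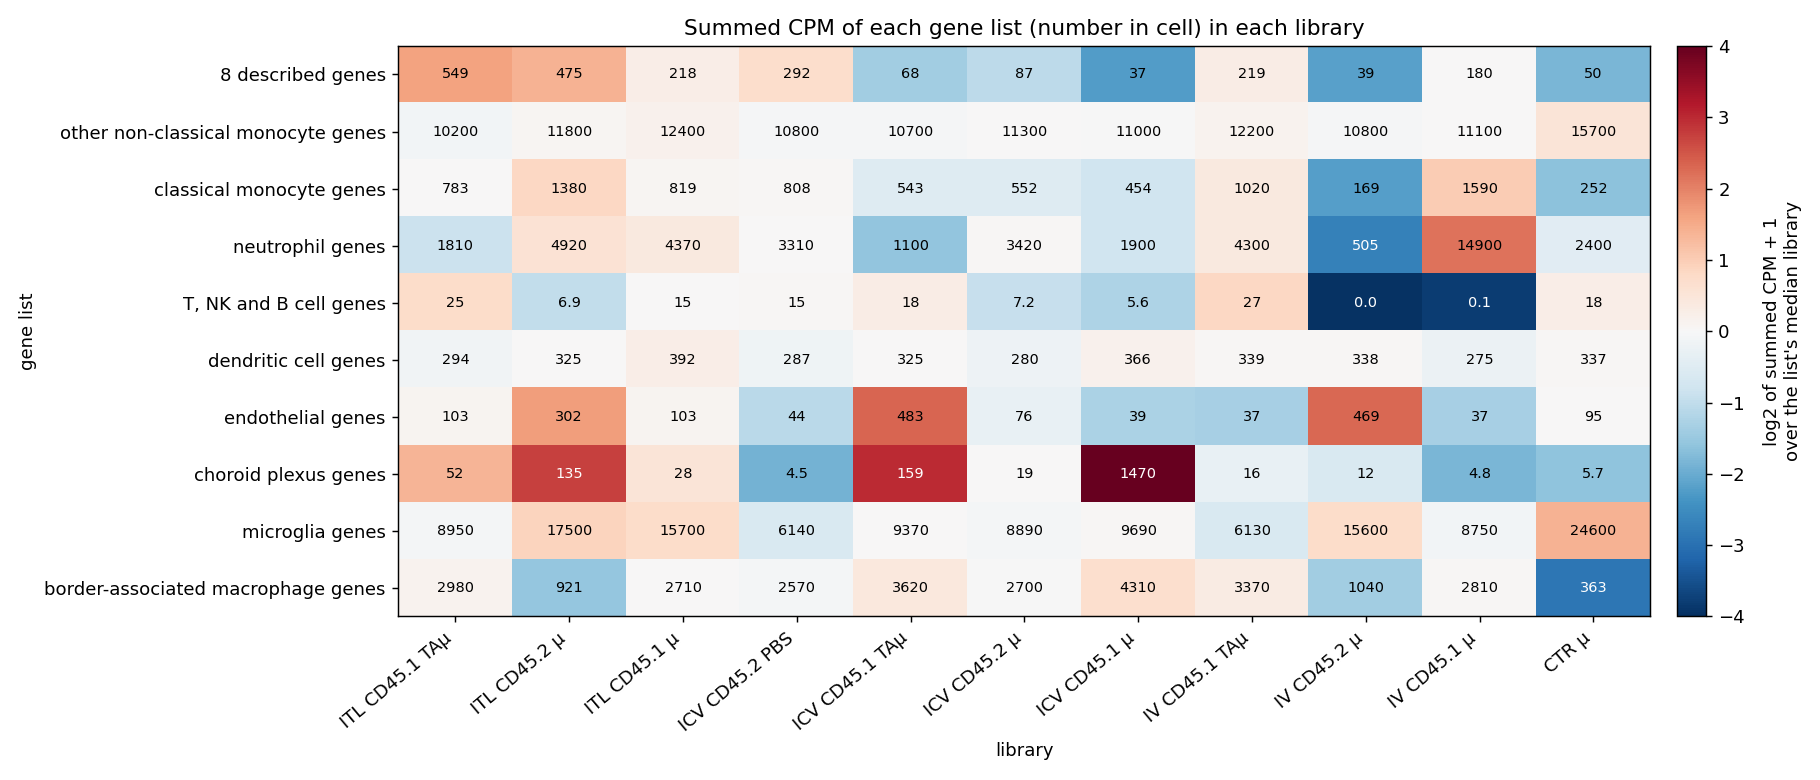
Summed CPM of each gene list (rows) in each of the 11 libraries (columns). The number in a cell is the sum, and its colour is the log2 of the sum plus 1 over the median library of that row. The sum of the 8 genes runs from 37.3 CPM in ICV CD45.1 µ to 549 CPM in ITL CD45.1 TAµ, while the other non-classical monocyte genes stay between 10200 and 12400 CPM in the 9 libraries of the layout.

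The relatives of the 8 genes were set beside them over the same routes. The 8 were picked on ITL against ICV and their relatives were not, so a member that stands alone here restates the choice. Of the 3 EGF-TM7 receptors, Adgre1, which encodes F4/80, had a fitted log2 difference of -0.53 for ITL against ICV and Adgre5 of 0.81. Adgre4 alone was at least 2-fold higher with the same direction in all 3 populations, as were 4.42% of all genes tested. Among 6 tested CD300 receptors this held for Cd300e alone, among 7 tested G protein gamma subunits for Gngt2 alone, and among 7 tested renin-angiotensin genes for Ace alone. Among 6 tested Src family kinases it held for Fgr and Fyn (1.14), while Lyn (0.12), which myeloid cells also use, stayed below 2-fold. Of the 6 TREM receptors, which include Treml4, all 6 were fitted higher, and Treml4, Trem1 (1.65) and Trem3 (1.23) were at least 2-fold higher in that way. Pglyrp1 was the only 1 of 4 peptidoglycan recognition proteins with enough counts to be tested. None of these relatives passed in a contrast between populations.

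Across the 9 layout libraries, the genes outside the group whose log2 CPM most resembled the mean standardised profile of the 8 were Clec4a3 (Pearson r = 0.962), Zkscan8 (0.958), Coq9 (0.954), Lsp1 (0.951), Coro1a (0.933), Ifitm2 (0.923), Agtpbp1 (0.921) and Plac8 (0.918), out of 8036 genes compared. The 9 points share routes and populations, and the highest of 8036 values is high by selection, so r is a description without a p. Clec4a3, a C-type lectin receptor gene of the other non-classical monocyte list, had 64.9, 73.6 and 58.4 CPM after ITL, against 25.5, 32.3 and 18.1 CPM after ICV and 36.7, 10.8 and 36.2 CPM after IV, in the order CD45.1 TAµ, then CD45.2 µ, then CD45.1 µ. Plac8, on the classical monocyte list, had 88.2, 97.2 and 21.3 CPM after ITL, against 18.5, 13.5 and 0.718 CPM after ICV and 33.3, 0 and 27.9 CPM after IV. In CTR, outside this comparison, Clec4a3 had 68.7 CPM and Plac8 2.22 CPM. For Clec4a3 the CTR level thus lay within the ITL range of 58.4 to 73.6 CPM. CTR was below all 3 ITL libraries for each of the 8, but their ITL levels were part of the choice. Nothing is therefore read from this contrast with Clec4a3. Most like Adgre4 alone were Agtpbp1, Plac8 and Plekhm3 (r = 0.959, 0.951 and 0.949), most like Ace were Nup155, Cyp4f16 and Lsp1 (0.942, 0.936 and 0.897), and most like Fgr were Anxa2, Taf2 and Naa60 (0.983, 0.969 and 0.949). Anxa2 had 55.9, 54.8 and 34.5 CPM after ITL, against 12.6, 25.1 and 2.96 CPM after ICV, so it shared with Fgr the low level in ICV CD45.1 µ.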

How the data were processed

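RNA was extracted from sorted brain myeloid cells and turned into cDNA, per the labels' protocols. The deposited tables, 1 per library, hold raw counts of reads for each gene symbol, with no normalization. Reads were aligned with STAR to mm39, also named GRCm39, per the submitters' processing notes. Its version, the annotation and the strand setting are not given there. All columns were assigned, so 0 were left over.

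Levels are CPM of the library total (6090589 to 21282823 counts) with exact 95% Poisson intervals. The 9 layout libraries were fitted in R 4.3.3 with edgeR 4.0.16: filter of minimum count 10 and total 15 (13339 genes kept), TMM, an additive model of route and population with 4 residual degrees of freedom (biological coefficient of variation 0.842), the quasi-likelihood F test and Benjamini-Hochberg adjustment at 0.05. PBS and CTR stayed out of it. Log2 CPM and the log ratios within each population used a prior count of 2. The fitted differences used the default prior count of the fit instead. The SE is the fold change over the square root of F. The model was tested on simulated data.

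The edgeR variant was chosen after results were seen. The first fit used the older quasi-likelihood method. All 8 combinations of library size (all or tested genes), robust estimation and that method were then compared with their counts of calls in view, and the newer method without robust estimation was kept because it followed earlier processing of these data. It is among those that call most genes. No combination called any of the 8 genes.

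The members and the 16 other gene lists (172 genes, 169 of them in the tables) were chosen with earlier results of these data known. The rule for named genes took all 8 members. From each list it took up to 4 genes that passed with the largest fold change, or the 2 with the smallest p where none passed. By likeness it took the 8 genes nearest to the members' mean profile and 3 each for Adgre4, Ace and Fgr. Nr4a1, Eno3, S1pr5, Fcgr4, Cebpb, Klf2, the named relatives and the levels of Clec4a3, Plac8 and Anxa2 were singled out after their values were seen. Alternatives included DESeq2 1.42.0, limma 3.58.1 (voom), other scalings and filters, all 11 libraries, no route block and each library left out.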

Additional observations from a re-analysis of the deposited data

Results flagged for a closer look

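All 8 genes were higher in the ICV CD45.2 PBS library than in the CTR µ control, in data outside the modelled layout, as were 56.6% of genes tested. The ratio of PBS to CTR was 80.1 for Ace (95% interval 44.6 to 161), 77.1 for Cd300e (26.2 to 376, on 3 counts in CTR) and 54.8 for Treml4 (21.2 to 202, on 4 counts in CTR). It was 20.2 for Spn (13.8 to 30.9), 12.3 for Fgr (9.24 to 16.6) and 11.3 for Adgre4 (8.3 to 15.6). The smallest ratios were 1.71 for Pglyrp1 (1.42 to 2.07) and 1.56 for Gngt2 (1.37 to 1.77). Each is a ratio of 2 single libraries with an interval for counting error only, and the labels do not expand PBS. Classical monocyte genes summed to 808 CPM in PBS and 252 CPM in CTR, and neutrophil genes to 3310 CPM in PBS and 2400 CPM in CTR. Border-associated macrophage genes summed to 2570 CPM in PBS and 363 CPM in CTR, and microglia genes to 6140 CPM in PBS and 24600 CPM in CTR. The part of these cell types in these ratios was not tested.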

How the results depend on the processing

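No paired analysis was possible because the labels carry no replicate or animal numbers that link libraries, and each combination had 1 library. The count of 7 of the 8 genes at least 2-fold higher in ITL than in ICV stayed at 7 or 8 under every alternative run. For ITL against IV the count of 4 ranged from 4 to 7 with 1 library left out, and for ICV against IV the count of 0 ranged from 0 to 5 and was 7 without both libraries of few genes. Where a library of either route is left out, the same direction is asked of 2 populations in place of 3, and the last 7 rests on the CD45.1 TAµ pair alone. Between CD45.1 TAµ and CD45.1 µ, 0 to 1 of the 8 passed with 1 library left out and 1 without both libraries of few genes. In the other population contrasts 0 passed under every alternative. Over the 8 edgeR variants compared after seeing results, calls among all genes ran from 2 to 10 between CD45.1 TAµ and CD45.1 µ, 0 to 4 between CD45.2 µ and CD45.1 µ and 15 to 46 for CD45.1 TAµ against CD45.2 µ, with 0 of the 8 genes called in any, so these counts of all genes depend on the variant. The lowest adjusted p of a member in any variant was 0.237, 0.507 and 0.695 in that order.

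Population differences that missed the threshold also changed sign. With 1 library left out, CD45.1 TAµ against CD45.1 µ ran from -1.40 to 0.40 log2 units for Pglyrp1, -0.57 to 3.16 for Treml4 and -0.01 to 0.72 for Gngt2. CD45.2 µ against CD45.1 µ ran from -0.99 to 1.12 for Spn, -0.28 to 1.18 for Fgr, -1.43 to 0.41 for Pglyrp1, -0.41 to 1.30 for Ace, -0.93 to 2.72 for Treml4 and -0.083 to 0.744 for Gngt2. CD45.1 TAµ against CD45.2 µ ran from -0.61 to 1.53 for Treml4, -0.30 to 0.51 for Gngt2, -0.33 to 0.97 for Fgr and -1.24 to 0.53 for Pglyrp1. In CD45.2 µ against CD45.1 µ, Spn (-0.07) was 0.88 with limma-voom, 0.014 without the route block and 0.73 without both libraries of few genes, and Fgr (0.23) was -0.007 without the block. In CD45.1 TAµ against CD45.2 µ, Treml4 (0.33) was -2.80 with DESeq2, -1.51 with the older quasi-likelihood fit and -0.56 without both libraries of few genes, Gngt2 (-0.05) was 0.10 with limma-voom and 0.14 without the block, and Fgr (0.42) was -0.15 without both libraries of few genes. The cause was not tested.

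Library totals alone moved the median of all genes by -0.12 log2 units between CD45.1 TAµ and CD45.1 µ and by -0.13 for ICV against IV. Depth limits the low genes: a count of 0 leaves up to 0.493 CPM in the shallowest library.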
